A study of Homo sapiens with 24 samples.

Results

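The genes described here are 10 cyclins and cell cycle CDKs: the D-type cyclin genes CCND1, CCND2 and CCND3, the E-type cyclin genes CCNE1 and CCNE2, the A-type cyclin gene CCNA2, the B-type cyclin genes CCNB1 and CCNB2, and the kinase genes CDK1 and CDK2. They were taken by name, 10 of the 28907 gene symbols in the table, and all 10 were found. RNA sequencing was done on A2780 and ES2, established human ovarian cancer cell lines that the labels give as wild type. Each line had 4 groups of 3 libraries: siVRK1 (an siRNA against the nuclear kinase gene VRK1), siCtrl (a control siRNA), luteolin (a plant flavone) and DMSO (a solvent). Neither dose nor time of treatment is stated in the sources used here, and the labels do not say whether the 3 libraries of a group were separate cultures. The p-values therefore measure the spread between these libraries only, which may be technical. Levels are TPM, the deposited length-adjusted relative abundance, which keeps no record of depth.

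Cyclins are the regulatory subunits that switch on cyclin-dependent kinases. D-type cyclins join CDK4 or CDK6 in G1 and link growth signals to the phosphorylation of the retinoblastoma protein. E-type cyclins then activate CDK2 at entry into S phase, cyclin A2 works with CDK2 and later CDK1, and B-type cyclins with CDK1 drive mitosis. The transcripts of CCNA2, CCNB1, CCNB2 and CDK1 are known to accumulate late in the cell cycle, and CCNE1 and CCNE2 are known targets of E2F factors that peak near the G1/S boundary.

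VRK1 itself was at 9.57 ± 1.68 TPM with siVRK1 and 54.4 ± 0.788 TPM with siCtrl in A2780, and at 3.73 ± 0.703 and 64.6 ± 2.17 TPM with the same siRNAs in ES2 (SD, n = 3 each), so every siVRK1 library was below every siCtrl library of its line. Of 9 ovarian epithelial and cancer cell markers, 6 averaged at least 1 TPM in ES2 and 3 in A2780. The A2780 ones were EPCAM, KRT18 and VIM, of which VIM, at 2544 to 3863 TPM over the groups, is not an epithelial marker. PAX8 and WT1, which mark many ovarian carcinomas, averaged below 0.1 TPM in every A2780 group, and between 0.766 and 1.93 TPM and between 1.43 and 2.34 TPM over the ES2 groups. Of 6 leukocyte, 3 endothelial and 5 fibroblast markers, 1, 0 and 4 averaged at least 1 TPM in A2780, with summed levels of 2.16 to 6.93, 0.120 to 1.58 and 32.8 to 61.3 TPM per library. In ES2, 1 marker of each list did, with summed levels of 36.0 to 79.0, 9.59 to 39.8 and 3.53 to 6.38 TPM. Some markers moved with treatment. The leukocyte marker CD68 averaged 75.4 TPM with siVRK1 and 36.7 TPM with siCtrl in ES2, and the endothelial marker CDH5 averaged 8.86 TPM with luteolin and 37.8 TPM with DMSO there. In A2780 the fibroblast marker THY1 averaged 25.8 TPM with siVRK1 and 16.4 TPM with siCtrl, and 26.99 TPM with luteolin and 42.5 TPM with DMSO. Genes with an MT- symbol, encoded in mitochondria, held 10.5% ± 1.40 of TPM with luteolin and 7.10% ± 1.03 with DMSO in A2780, and 7.78% ± 0.791 and 4.57% ± 0.564 with those agents in ES2 (SD, n = 3), without overlap in either line. With siVRK1 and siCtrl the MT- share overlapped in both lines. The part of these markers and shares in the results below was not tested. The number of genes at 1 TPM or more was 11792 to 12862 per library.

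The stretches just upstream of 4 starts are shown first, because their genes (CCNA2, CCNB1, CCNB2 and CDK1) are the members whose transcripts fell with luteolin in both lines. Each line gives the 120 bases before the RefSeq start (GRCh38.p14), 5′ to 3′ on the gene's own strand. Capitals mark TTTGAA or CTTGAA, forms of the cell cycle genes homology region that MuvB complexes bind, and CCAAT, the box bound by NF-Y, or its reverse ATTGG.
CCNA2, chr4:121823884-121824003, minus strand: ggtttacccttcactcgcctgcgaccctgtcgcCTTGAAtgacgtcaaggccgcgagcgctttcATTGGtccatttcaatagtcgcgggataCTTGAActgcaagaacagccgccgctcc
CCNB1, chr5:69167030-69167149, plus strand: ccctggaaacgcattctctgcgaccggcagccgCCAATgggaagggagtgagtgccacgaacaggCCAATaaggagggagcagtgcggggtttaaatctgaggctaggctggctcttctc
CCNB2, chr15:59105026-59105145, plus strand: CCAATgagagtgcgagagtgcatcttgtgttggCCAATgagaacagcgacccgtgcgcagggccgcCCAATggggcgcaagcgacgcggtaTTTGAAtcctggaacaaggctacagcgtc
CDK1, second start, chr10:60778358-60778477, plus strand: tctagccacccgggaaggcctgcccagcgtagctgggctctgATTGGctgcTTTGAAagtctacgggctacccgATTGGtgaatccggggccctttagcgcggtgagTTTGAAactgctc

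CCNB2 held CCAAT 3 times and TTTGAA once, 29 bases before its start, and CCNA2 held CTTGAA 28 and 87 bases before its start. CCNB1 held CCAAT 55 and 87 bases before its start, and neither TTTGAA nor CTTGAA. The CDK1 stretch held TTTGAA and ATTGG at 2 positions each, while the 120 bases before the first CDK1 start held none of these letters. CCND3, which did not fall with luteolin in both lines, held ATTGG 64 bases before the third of its starts. None of these letters stood before its other starts or before that of CCNE1, which fell with luteolin in A2780 and was not called in ES2. Among all 35116 RefSeq promoters, searched on both strands over the same 120 bases, 9.30% held TTTGAA or CTTGAA, 20.4% held CCAAT, and 2.01% held both kinds. No match overlapped another. These are matches of letters, not measured binding, and their part in the changes was not tested. Promoter entries were matched for 6 of the 10 genes; CCND1, CCND2, CCNE2 and CDK2 had none.

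**Figure D1:**
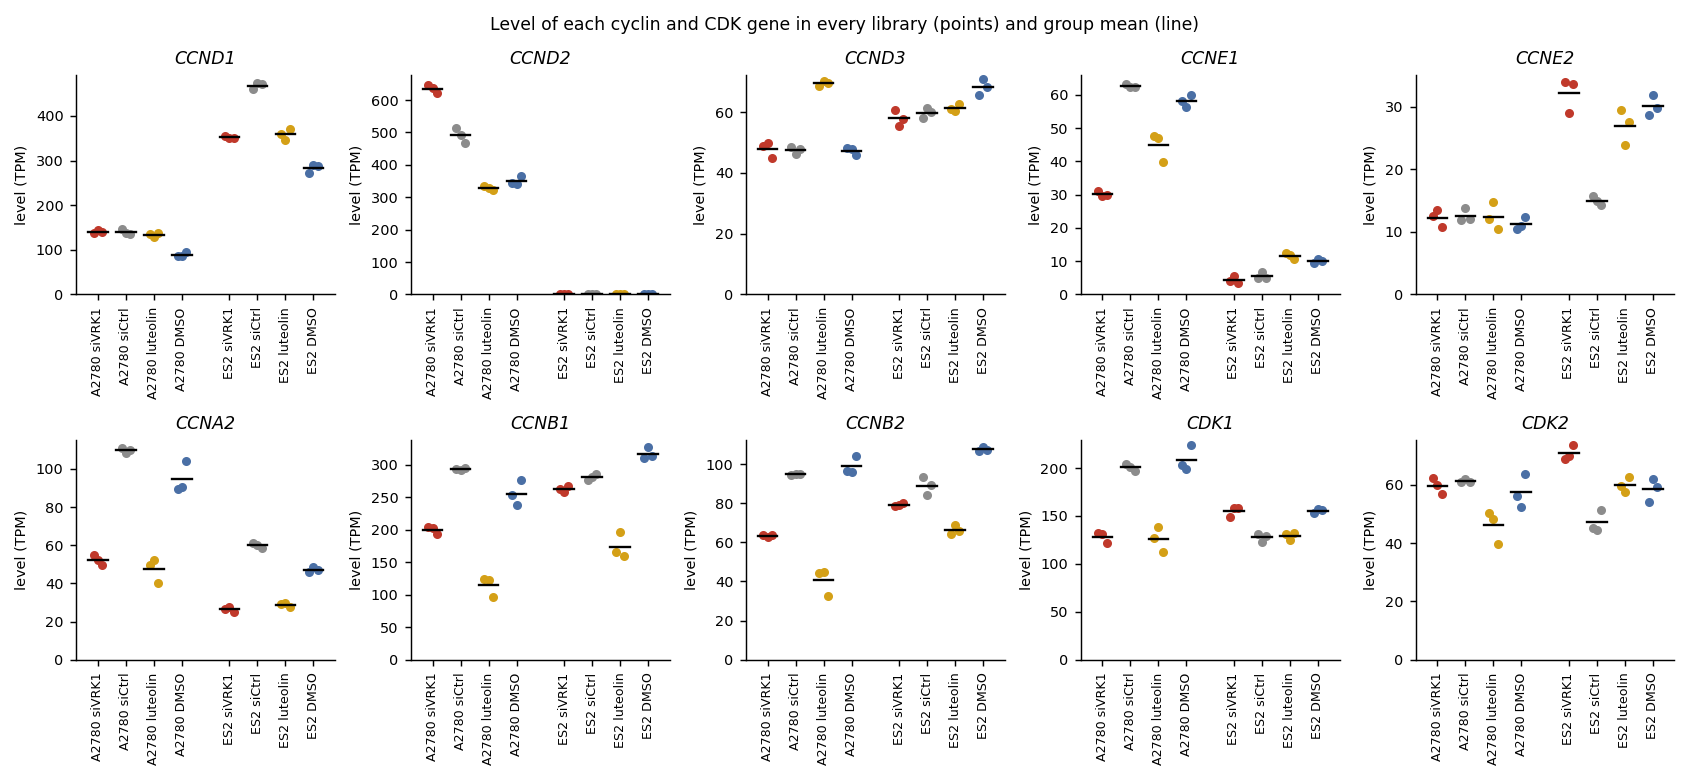
TPM of the 10 genes in all 24 libraries, 1 panel per gene, each with its own axis from 0. Points are libraries and lines are means of 3; the CCND2 points of ES2 lie at or near 0, and CCNA2 in both siVRK1 groups lies below its siCtrl points.

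With luteolin, transcripts of cyclin A2, both B-type cyclins and CDK1 fell in both lines. With siVRK1 the lines parted: in A2780 the same 4 genes fell along with CCNE1, whereas in ES2 CCNA2, CCNB2 and CCND1 fell while CCNE2, CDK2 and CDK1 rose. CCNA2 was the 1 gene of the 10 that was lower by at least 1 on the log2 scale with siVRK1 in both lines. Since RNA came from bulk cultures, fewer cells in a phase and less RNA per cell cannot be told apart.

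Changes were tested with limma on log2(TPM + 1), with p-values adjusted by Benjamini-Hochberg across every gene tested in a comparison, and called at an adjusted p under 0.05. With siVRK1 in A2780, 1 of the 10 genes was higher and 5 were lower, beside 13.8% and 27% of all 13012 genes tested. With siVRK1 in ES2, where CCND2 fell below the filter, 3 of 9 were higher and 3 lower, beside 26.8% and 28% of 12507 genes. With luteolin in A2780, 2 of 10 were higher and 6 lower, beside 45.6% and 19.9%. With luteolin in ES2, 1 of 9 was higher and 5 lower, beside 22.6% and 25.8%. The median log2 change of the members was −0.30 with siVRK1 and −0.34 with luteolin in A2780, and −0.10 and −0.16 with the same treatments in ES2. Over all genes tested the median was −0.08 and 0.22 in A2780, and −0.0022 and −0.0033 in ES2. Median-of-ratios scaling moved the split of all called genes in A2780 to 2687 higher and 2657 lower with siVRK1, from 1799 and 3519, and to 4241 and 4213 with luteolin, from 5938 and 2585. That scaling also moved the A2780 luteolin median from 0.22 to 0.02, so A2780 luteolin changes of genes are given below relative to the median of all genes, while their adjusted p is that of the unshifted change. Changes of single transcripts are not shifted.

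**Figure D2:**
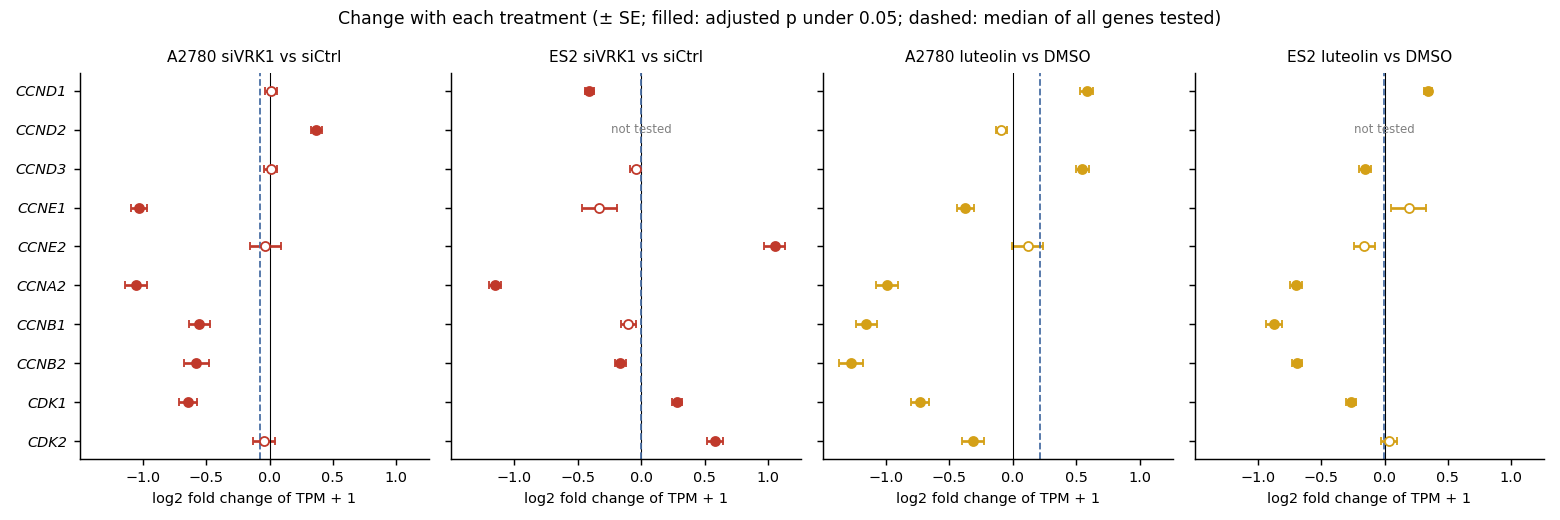
Log2 fold change of TPM + 1 (horizontal axis, ± SE of the limma fit) of the 10 genes for siVRK1 against siCtrl and luteolin against DMSO in each line. Filled points passed an adjusted p of 0.05, dashed lines are the median of all genes tested, and the luteolin values are not shifted by that median; CCNA2 lies left of 0 in all 4 panels.

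Among the D-type cyclins, CCND1 (chr11:69641087-69654474, plus strand, GRCh38, GENCODE release 29) rose with luteolin in both lines and fell with siVRK1 in ES2. In ES2 it was at 355, 351 and 351 TPM with siVRK1, against 460, 473 and 470.5 TPM with siCtrl, and the groups did not overlap. This was a log2 fold change of −0.41 ± 0.03 (SE; limma adjusted p = 5.76e-07). Both groups lay above the ES2 DMSO libraries, at 273, 289 and 287 TPM. In A2780 CCND1 was at 138, 145 and 139 TPM with siVRK1 and 146, 137 and 135 TPM with siCtrl, which overlapped (0.013 ± 0.05, 95% interval −0.10 to 0.12). With luteolin it was at 135, 128 and 138 TPM in A2780, against 86.2, 86.9 and 94.0 TPM with DMSO. The ES2 values were 359, 346 and 371 TPM with luteolin, against 273, 289 and 287 TPM with DMSO. Every luteolin library lay above every DMSO library of its line, by 0.36 ± 0.05 relative to the median in A2780 (limma adjusted p = 6.35e-07) and by 0.34 ± 0.03 in ES2 (limma adjusted p = 4.48e-06).

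CCND2 (chr12:4273772-4305350, plus strand) was listed at 0 TPM in 10 of the 12 ES2 libraries and at no more than 0.034 TPM in the other 2, both with luteolin. In A2780 its level, summed over its transcripts, was the highest among the D-type cyclins. Its summed level in A2780 was 646, 637 and 621 TPM with siVRK1, against 514, 492 and 469 TPM with siCtrl, without overlap (0.37 ± 0.04, limma adjusted p = 2.58e-05). It was 336, 328 and 321 TPM with luteolin and 343, 342 and 364 TPM with DMSO, without overlap, but the difference was not called (limma adjusted p = 0.0748; −0.31 relative to the median of all genes, and called at −0.31 with median-of-ratios scaling, adjusted p = 2.83e-05). With quantile normalization its sign turned, to 0.051.

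The transcripts of CCND2 moved in opposite directions, so the sum does not describe the full-length message. CCND2-201, the 6480-base coding transcript, was at 132, 127 and 130 TPM with siVRK1, against 166, 162 and 153 TPM with siCtrl, and fell by 0.30 ± 0.07 on the log2 scale (limma over 52522 transcripts, adjusted p = 0.0177). CCND2-204, a 322-base processed transcript, was at 157, 150 and 168 TPM with siVRK1, against 107, 95.1 and 77.6 TPM with siCtrl, and rose by 0.77 ± 0.11 (limma adjusted p = 0.00167). The retained-intron transcript CCND2-203, of 572 bases, also rose (63.1 against 32.5 TPM on average, 0.93 ± 0.17, limma adjusted p = 0.00518). CCND2-202, of 529 bases, was at 260, 256 and 234 TPM with siVRK1, against 181, 174 and 180 TPM with siCtrl. These did not overlap, but the difference was not called (limma adjusted p = 0.633). The fit takes 1 spread over all A2780 groups, and the DMSO libraries of CCND2-202 were at 8.79, 12.9 and 52.4 TPM. With luteolin CCND2-201 averaged 240 TPM, against 210 TPM with DMSO. That change passed the test unshifted (0.19 ± 0.07, limma adjusted p = 0.0476). It lay below the median of the gene sums, 0.22. In a fit of the most abundant transcript of each gene, it lay above the median by 0.10. Whether it rose relative to other genes depends on that choice, so no such rise is read from it. CCND2-204 averaged 17.5 TPM with luteolin, against 61.9 TPM with DMSO, and fell by 1.77 ± 0.11 (limma adjusted p = 1.51e-06). The split of reads between short and long transcripts that share sequence rests on kallisto's estimate, and its part in these opposite changes was not tested.

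**Figure D3:**
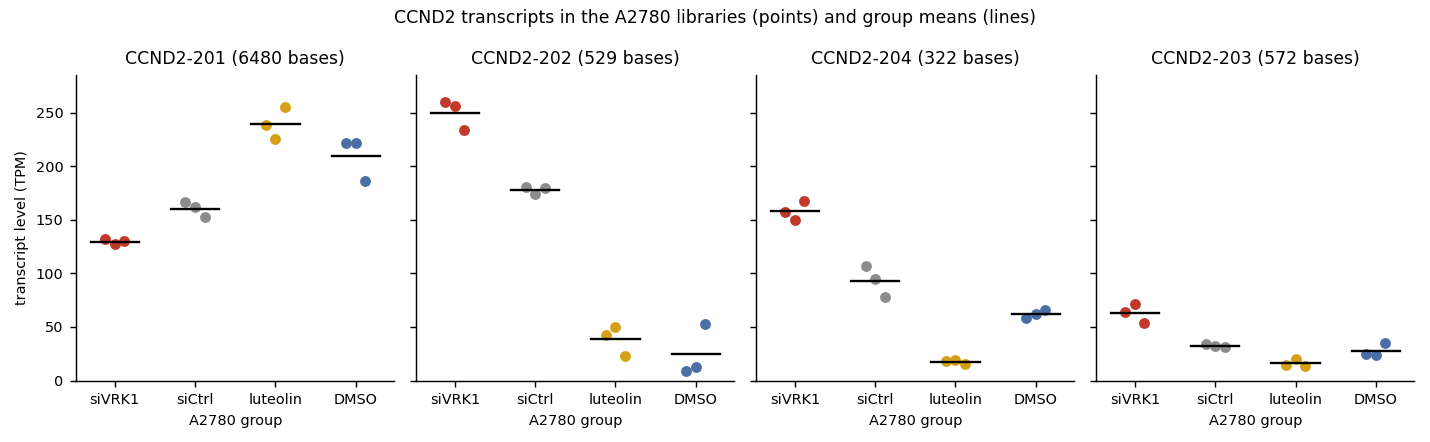
TPM of 4 CCND2 transcripts in the A2780 libraries (points, 3 per group) with group means (lines), on 1 shared vertical axis. With siVRK1 the 6480-base transcript lies below its siCtrl points while the transcripts of 322 and 572 bases lie above theirs.

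CCND3 (chr6:41934933-42050357, minus strand) rose with luteolin in A2780, where it was at 68.5, 70.3 and 69.6 TPM, against 48.1, 47.8 and 45.8 TPM with DMSO (0.33 ± 0.05 relative to the median, limma adjusted p = 1.36e-06). The ES2 values were 61.1, 60.3 and 62.6 TPM with luteolin, against 65.7, 71.0 and 68.3 TPM with DMSO, a fall of −0.15 ± 0.05 (limma adjusted p = 0.0153). Neither group pair overlapped, but the ES2 fall was not called with quantile normalization (adjusted p = 0.152) or without ES2 DMSO library 2 (−0.13). With siVRK1 it overlapped siCtrl in both lines. The summed D-type level was 823 ± 16.2 TPM with siVRK1 and 679 ± 28.3 TPM with siCtrl in A2780, and 410 ± 4.61 and 527 ± 8.74 TPM with the same siRNAs in ES2 (SD, n = 3). CCND2 made up 77.1% and 72.4% of it in the A2780 siVRK1 and siCtrl groups, and CCND1 85.9% and 88.7% in those ES2 groups. The A2780 sums and shares include short CCND2 transcripts that rose with siVRK1, while the full-length CCND2 transcript fell. The higher A2780 sum with siVRK1 is therefore not read as more full-length D-type message.

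Of the E-type cyclins, CCNE1 was called with siVRK1 in A2780 and CCNE2 in ES2, while CCNE1 in ES2 was near the threshold. CCNE1 (chr19:29811898-29824308, plus strand) was at 31.0, 29.7 and 29.7 TPM with siVRK1 in A2780, against 63.1, 62.2 and 62.2 TPM with siCtrl, and fell by 1.03 ± 0.06 on the log2 scale (limma adjusted p = 2.26e-07). In ES2, where it was scarcer, it was at 3.97, 5.44 and 3.47 TPM with siVRK1 and 5.06, 6.78 and 5.04 TPM with siCtrl, which overlapped (−0.33 ± 0.14, limma adjusted p = 0.0582, and called without siVRK1 library b at −0.48). That ES2 difference was also called with the most abundant transcript (−0.31, limma adjusted p = 0.0484). A block for replicate number gave a call in 1 order of the unnumbered libraries (limma adjusted p = 0.0292). CCNE2, on the minus strand of chromosome 8, was at 33.9, 29.01 and 33.6 TPM with siVRK1 in ES2, against 15.7, 14.9 and 14.3 TPM with siCtrl, and rose by 1.05 ± 0.08 (limma adjusted p = 4.76e-07). In A2780 it was at 12.6, 13.5 and 10.7 TPM with siVRK1 and 11.9, 13.8 and 11.99 TPM with siCtrl, a difference that was not called and whose sign turned with median-of-ratios or quantile scaling.

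The ES2 siCtrl level of CCNE2 was itself low for that line. ES2 averaged 32.2 ± 2.75 TPM with siVRK1, 14.99 ± 0.695 with siCtrl, 26.95 ± 2.86 with luteolin and 30.1 ± 1.61 with DMSO (SD, n = 3), so the siVRK1 libraries overlapped the DMSO libraries. Luteolin lowered CCNE1 in A2780, to 47.5, 47.0 and 39.8 TPM, against 58.0, 56.4 and 60.0 TPM with DMSO (−0.59 ± 0.06 relative to the median, limma adjusted p = 0.000242). In ES2 CCNE1 was at 12.5, 11.7 and 10.7 TPM with luteolin and 9.50, 10.6 and 10.2 TPM with DMSO, without overlap, and was not called (limma adjusted p = 0.276). CCNE2 was not called with luteolin in either line. CCNE1 supplied between 11.9% and 30.3% of the E-type sum in the ES2 groups and between 71.1% and 83.8% in the A2780 groups.

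CCNA2 (chr4:121816444-121823933, minus strand), the S and G2 phase cyclin, has 1 transcript in the table and fell in all 4 comparisons. With siVRK1 it was at 55.0, 52.5 and 49.5 TPM in A2780, against 111, 108 and 110 TPM with siCtrl. ES2 had 26.6, 27.7 and 25.1 TPM with siVRK1, against 61.2, 60.3 and 58.6 TPM with siCtrl. The groups did not overlap, and the siVRK1 means were 0.477 and 0.441 times the siCtrl means of A2780 and ES2. With luteolin it was at 49.9, 52.2 and 40.1 TPM in A2780, against 89.5, 90.6 and 104 TPM with DMSO (−1.21 ± 0.09 relative to the median, limma adjusted p = 8.43e-07). ES2 had 29.2, 29.6 and 27.5 TPM with luteolin, against 46.2, 48.6 and 47.0 TPM with DMSO (−0.70 ± 0.05, limma adjusted p = 3.08e-07).

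Among the B-type cyclins, CCNB1 (chr5:69167010-69178245, plus strand), the main mitotic partner of CDK1, fell with siVRK1 in A2780 and was not called in ES2. It was at 204, 203 and 194 TPM with siVRK1 in A2780, against 294, 292 and 295 TPM with siCtrl (−0.55 ± 0.08, limma adjusted p = 0.000225). The ES2 libraries had 263, 258 and 267 TPM with siVRK1, against 277, 282 and 286 TPM with siCtrl. Those ES2 groups did not overlap, but the difference was small (−0.10 ± 0.06, limma adjusted p = 0.185, and 0.0133 in a fit of these groups alone). Luteolin lowered CCNB1 to 124, 123 and 96.4 TPM in A2780, against 253, 238 and 276 TPM with DMSO (−1.37 ± 0.08 relative to the median, limma adjusted p = 1.3e-07). The ES2 libraries had 165, 197 and 159 TPM with luteolin, against 311, 327 and 314 TPM with DMSO (−0.87 ± 0.06, limma adjusted p = 2.89e-07).

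CCNB2 (chr15:59105078-59125045, plus strand) ran beside CCNB1, which held between 72.1% and 76.8% of the B-type sum in every group. With siVRK1 it was at 63.6, 62.5 and 63.6 TPM in A2780, against 94.2, 95.1 and 94.99 TPM with siCtrl (−0.58 ± 0.10, limma adjusted p = 0.000475). In ES2 it was at 78.6, 78.95 and 80.0 TPM with siVRK1, against 93.3, 84.4 and 89.3 TPM with siCtrl (−0.17 ± 0.04, limma adjusted p = 0.00579), a fall that was not called with quantile normalization (adjusted p = 0.089). With luteolin in ES2 it was at 64.1, 69.0 and 65.7 TPM, against 106.8, 108.5 and 107.1 TPM with DMSO (−0.69 ± 0.04, limma adjusted p = 9.56e-08). In A2780 it was at 44.4, 45.1 and 32.4 TPM with luteolin, against 96.4, 95.8 and 104 TPM with DMSO (−1.49 ± 0.10 relative to the median, limma adjusted p = 1.96e-07). Luteolin library 3 was the lowest of the A2780 libraries for both B-type cyclins. None of these groups overlapped.

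CDK1 (chr10:60778331-60794852, plus strand), the mitotic kinase, went in opposite directions with siVRK1. It was at 132, 132 and 121 TPM with siVRK1 in A2780, against 204, 201 and 197 TPM with siCtrl, and fell by 0.64 ± 0.07 on the log2 scale (limma adjusted p = 1.8e-05). The ES2 libraries had 149, 159 and 158 TPM with siVRK1, against 131, 123 and 129 TPM with siCtrl, and rose by 0.28 ± 0.04 (limma adjusted p = 4.86e-05). The ES2 siVRK1 libraries (155 ± 5.33 TPM) overlapped the ES2 DMSO libraries (155 ± 2.01 TPM), and the siCtrl libraries lay below both (128 ± 4.14 TPM; SD, n = 3). Most of it was CDK1-203, at 133 against 115 TPM in ES2, while CDK1-201 was at 12.6 against 3.31 TPM there (1.66 ± 0.21, limma over 48349 transcripts, adjusted p = 0.000212). With luteolin CDK1 was at 127, 138 and 112 TPM in A2780, against 203, 199 and 224 TPM with DMSO (−0.95 ± 0.07 relative to the median, limma adjusted p = 1.51e-06). The ES2 libraries had 131, 125 and 132 TPM with luteolin, against 153, 157 and 156 TPM with DMSO (−0.27 ± 0.04, limma adjusted p = 0.000113).

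CDK2 (chr12:55966769-55972784, plus strand), the partner of cyclins E and A, rose with siVRK1 in ES2. It was at 68.8, 69.9 and 73.7 TPM with siVRK1 there, against 45.2, 44.6 and 51.4 TPM with siCtrl (0.58 ± 0.06, limma adjusted p = 8.78e-06). The ES2 DMSO libraries, at 54.2, 61.8 and 59.2 TPM, lay between those groups and overlapped neither. In A2780 it was at 62.2, 59.8 and 56.8 TPM with siVRK1 and 60.9, 62.1 and 61.0 TPM with siCtrl, which overlapped, and the sign of that difference turned with median-of-ratios or quantile scaling. Luteolin lowered it in A2780, to 50.1, 48.2 and 39.9 TPM, against 56.3, 52.2 and 63.5 TPM with DMSO (−0.53 ± 0.09 relative to the median, limma adjusted p = 0.00634), without overlap. In ES2 the luteolin and DMSO libraries overlapped (0.04 ± 0.06, 95% interval −0.10 to 0.18).

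The response to siVRK1 was then set against the other line directly, in 1 fit of 24 libraries. Of the 10 genes, 6 had a higher log2 change in ES2 than in A2780 and 2 a lower one, beside 20.7% and 13.2% of 14328 genes. The split of all genes was 2962 higher and 1897 lower, and 2254 and 2760 with median-of-ratios scaling. CCNE2 differed most, by 1.08 ± 0.15 (limma adjusted p = 1.38e-05), followed by CDK1 (0.93 ± 0.08, limma adjusted p = 3.49e-08). CCNE1, CDK2, CCNB1 and CCNB2 differed by 0.70, 0.62, 0.45 and 0.41 (limma adjusted p between 0.000208 and 0.00716). CCND1 was lower in ES2 by 0.42. CCND2, at 0 in ES2, differed by the size of its A2780 change. CCNA2 was not called as different (−0.10 ± 0.11, 95% interval −0.32 to 0.12), nor was CCND3 (−0.05 ± 0.06). In ES2, siCtrl itself lay below DMSO for CCNE2, CDK1, CCNE1, CDK2, CCNB1 and CCNB2 (log2 changes of −0.96 to −0.17). It lay above DMSO for CCND1 and CCNA2 (0.72 and 0.34). The part of these control differences in the line differences was not tested.

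For luteolin, 6 of the 10 genes again had a higher change in ES2 and 2 a lower one, beside 14.7% and 35.8% of all genes, whose split of 2104 higher and 5125 lower became 3472 and 3638 with median-of-ratios scaling. That scaling moved the median of all genes from −0.20 to −0.03, so differences are given relative to it. CCNB2 differed by 0.78 ± 0.11, CCNE1 by 0.76 ± 0.15, CDK1 by 0.66 ± 0.08 and CDK2 by 0.54 ± 0.11 (limma adjusted p between 0.000107 and 0.014). CCND3, which rose in A2780 and fell in ES2, differed by −0.51 ± 0.06 (limma adjusted p = 3.01e-08). CCNA2 and CCNB1 differed by 0.49 and 0.48, with adjusted p of 0.0251 and 0.0388 in limma. Without A2780 luteolin library 3 neither was called, at unshifted differences of 0.18 and 0.17. Leaving out A2780 DMSO library 3, ES2 luteolin library 2 or ES2 DMSO library 1 also ended both calls (unshifted 0.22 to 0.28 for CCNA2 and 0.19 to 0.27 for CCNB1), as leaving out A2780 DMSO library 1 or ES2 DMSO library 3 did for CCNB1 (0.29 and 0.28). CCND1 differed by −0.045 relative to the median and was not called with median-of-ratios scaling (adjusted p = 0.516).

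**Figure D4:**
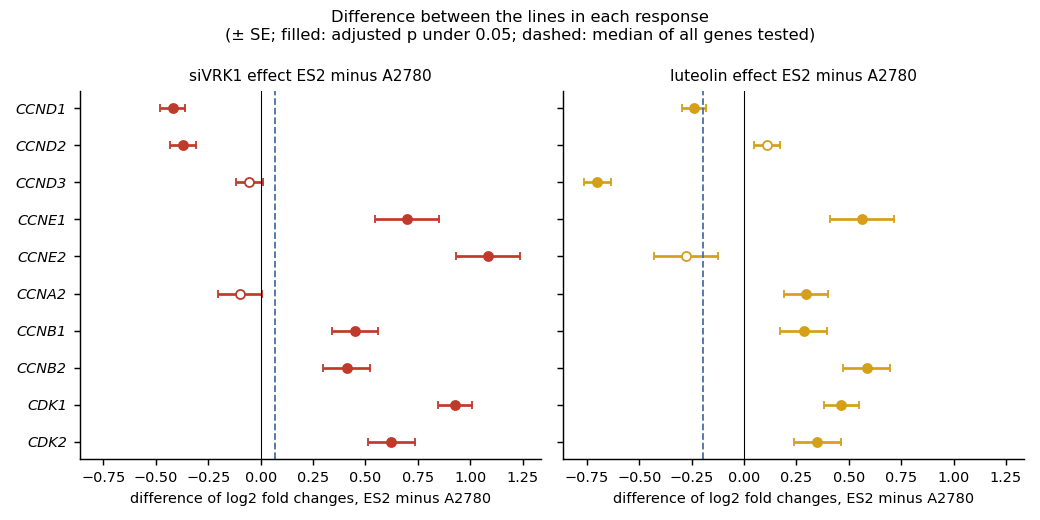
Difference of log2 fold changes, ES2 minus A2780 (± SE of the 24-library limma fit), for siVRK1 and for luteolin. Filled points passed an adjusted p of 0.05, and dashed lines mark the median of all genes tested; with siVRK1, CCNE2 and CDK1 lie farthest right and CCND1 farthest left.

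Within a line, the luteolin effect was compared with the siVRK1 effect. In ES2, 3 of 9 genes had a higher change with luteolin and 5 a lower one, beside 25.8% and 26% of all genes. CCNE2 differed by −1.21 ± 0.12 (limma adjusted p = 3.86e-06), CCNB1 by −0.77 ± 0.09, and CDK1, CDK2 and CCNB2 by between −0.55 and −0.53. CCND1 differed by 0.75 ± 0.05 (limma adjusted p = 9.15e-08) and CCNA2 by 0.46 ± 0.07, its fall being deeper with siVRK1. In ES2, siCtrl lay below DMSO for CCNE2, CCNB1, CDK1, CDK2 and CCNB2 (−0.96 to −0.17). It lay above DMSO for CCND1 and CCNA2 (0.72 and 0.34). The part of these control differences was not tested. CCNE1 was near the threshold (0.52 ± 0.19, limma adjusted p = 0.0395) and was not called when any library but ES2 siVRK1 b, siCtrl 1, siCtrl 3 or luteolin 3 was left out (0.40 to 0.55). In A2780, 3 of 10 were higher and 3 lower, beside 43.3% and 14.3%, and the split of all genes moved from 5631 higher and 1861 lower to 3538 and 3696 with median-of-ratios scaling, with the median moving from 0.30 to 0.02. Relative to that median, CCNB2 differed by −0.999 ± 0.14, CCNB1 by −0.90 ± 0.12 and CCND2 by −0.76 ± 0.06, while CCNE1 differed by 0.36 ± 0.09 (limma adjusted p at most 0.000838). When the most abundant transcript stood for the gene, CCNE1 was not called (0.18 unshifted, limma adjusted p = 0.381) and the CCND2 difference turned to 0.50 unshifted. CCNA2 was not called as different there (limma adjusted p = 0.685), and its sign turned with median-of-ratios or quantile scaling.

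The 2 kinds of control also differed from each other, and which cultures and handling they shared cannot be told apart from the reagent. In ES2, siCtrl against DMSO gave 2 of 9 genes higher and 7 lower, beside 34.7% and 21.5% of all genes, or 3570 higher and 3412 lower with median-of-ratios scaling against 4339 and 2692. CCND1 was higher by 0.72 ± 0.03 (468 against 283 TPM, limma adjusted p = 5.2e-09) and CCNA2 by 0.34 ± 0.05. CCNE2 was lower by −0.96 ± 0.08 (14.99 against 30.1 TPM, limma adjusted p = 1.12e-06) and CCNE1 by −0.75 ± 0.14 (5.63 against 10.1 TPM). CDK1 and CDK2 were lower there too, by −0.28 ± 0.04 and −0.31 ± 0.06 (limma adjusted p = 4.73e-05 and 0.00143). CCNB1 was lower by −0.17 ± 0.06 and was not called without any 1 of the ES2 siCtrl libraries, DMSO library 2 or DMSO library 3 (−0.18 to −0.15). In A2780, CCND1 and CCND2 were the 2 genes called of 10, both higher, beside 47.2% of all genes higher and 10.9% lower, or 3044 higher and 3368 lower with median-of-ratios scaling against 6144 and 1412. Relative to the A2780 median of 0.24, CCND1 was higher by 0.40 ± 0.05 and CCND2 by 0.25 ± 0.04. That CCND2 rise is of the summed level only. The full-length CCND2-201 was at 166, 162 and 153 TPM with siCtrl, against 221, 221 and 186 TPM with DMSO. A fit of the most abundant transcripts gave −0.38 unshifted for CCND2 (limma adjusted p = 0.000968). With median-of-ratios scaling 6 of the 10 were called, 2 higher and 4 lower; the lower ones were CCND3 (−0.25), CCNE1 (−0.15), CCNB2 (−0.32) and CDK1 (−0.31). For CCND1 in A2780, the luteolin level (134 ± 5.27 TPM) overlapped the siCtrl level (139 ± 5.68 TPM), and only the DMSO level (89.0 ± 4.34 TPM) stood apart among the 4 groups (SD, n = 3).

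Between the lines, the ES2 and A2780 controls differed most in CCND2, CCNE1 and CCND1. With siCtrl, 3 of 10 genes were higher in ES2 and 5 lower, beside 29.8% and 50.7% of all genes, or 5435 higher and 5899 lower with median-of-ratios scaling against 4273 and 7268. With DMSO, 4 were higher and 4 lower, beside 35.2% and 41.2%. CCND1 was at 468 ± 7.09 TPM in ES2 siCtrl and 139 ± 5.68 TPM in A2780 siCtrl, 3.35 times as high. CCNE1 was at 5.63 ± 0.9998 TPM in ES2 siCtrl and 62.5 ± 0.482 TPM in A2780 siCtrl (−3.00 ± 0.11 relative to the median of −0.27), and at 10.1 ± 0.538 TPM in ES2 DMSO and 58.1 ± 1.78 TPM in A2780 DMSO. CCNA2 was lower in ES2 with either control, at 60.0 and 47.3 TPM in ES2 siCtrl and DMSO and at 110 and 94.8 TPM in A2780 siCtrl and DMSO. CCNE2 was 2.67 times as high in ES2 with DMSO (limma adjusted p = 3.77e-10), but with siCtrl the difference was near the threshold (0.24 ± 0.11 unshifted, limma adjusted p = 0.0474), and was not called without A2780 siCtrl library 1 or 3 or any 1 of the ES2 siCtrl libraries (0.21 to 0.27).

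With luteolin in A2780, retained-intron transcripts of CDK1 and CCNB1 were higher while a coding transcript of the same gene was lower. Of 53 member transcripts tested on their own there, 16 were higher and 16 lower, beside 27.7% and 10.8% of all transcripts. Of the 11 retained-intron transcripts of these genes tested with luteolin in A2780, 8 were higher and 2 lower, beside 47.6% and 2.53% of all 8370 retained-intron transcripts tested. With siVRK1 in A2780, 3 of 53 were higher and 10 lower, beside 3.95% and 7.17%. In ES2, 5 of 42 were higher and 4 lower with siVRK1, beside 9.99% and 11.4%, and 4 were higher and 11 lower with luteolin, beside 8.92% and 11.1%. With luteolin and DMSO in A2780, CDK1-205 was at 5.16 against 1.78 TPM (1.15 ± 0.15, limma adjusted p = 0.00019) and CDK1-206 at 8.13 against 3.34 TPM, while the coding CDK1-203 was at 102 against 187 TPM (−0.87 ± 0.07). There CCNB1-207, which retains an intron, was at 5.86 against 1.51 TPM (1.38 ± 0.41, limma adjusted p = 0.0217), and the coding CCNB1-201 at 30.9 against 84.3 TPM (−1.42 ± 0.06). In CCND1, by contrast, both kinds were higher: the retained-intron CCND1-206 was at 7.60 against 1.04 TPM (2.05 ± 0.42, limma adjusted p = 0.00292) and the coding CCND1-201 at 108 against 85.4 TPM (0.33 ± 0.04). CCND1-201 made up 80.7% of CCND1 with luteolin and 96.0% with DMSO. For CCNE1 in A2780, the coding CCNE1-201 fell to 24.6 TPM with luteolin, against 46.6 TPM with DMSO, while CCNE1-202, also protein coding, was at 11.2 against 7.01 TPM (0.64 ± 0.22, limma adjusted p = 0.0424). With luteolin in ES2, 1 of 8 retained-intron transcripts was higher and 1 lower, beside 8.66% and 4.27%. These transcript tests were chosen after the values had been seen.

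Around the 10 genes, the regulators were counted by list. Each list count here and below stands beside the shares of all genes called higher and lower. These were 13.8% and 27% with siVRK1 in A2780, and 26.8% and 28% in ES2. For luteolin they were 45.6% and 19.9% in A2780, and 22.6% and 25.8% in ES2. Of 5 CDC25 phosphatase and CKS subunit genes, which activate or assist CDKs, 0 were higher and 4 lower with siVRK1 in A2780, and 1 was higher and 4 lower in ES2. With luteolin 0 were higher and 4 lower in A2780, and 1 was higher and 4 lower in ES2. CDC25C fell to 9.11 ± 0.456 TPM with siVRK1 in A2780, against 17.1 ± 0.994 TPM with siCtrl (−0.84 ± 0.10), and CKS2 fell to 343 ± 10.5 TPM in ES2, against 573 ± 21.6 TPM (−0.74 ± 0.05). CDC25A, the G1/S phosphatase, was the member that rose with siVRK1 in ES2, at 46.5 against 30.7 TPM. The inhibitory kinase gene WEE1 fell with siVRK1 in both lines (−0.82 ± 0.12 in A2780 and −0.52 ± 0.13 in ES2), whereas its relative PKMYT1 fell in A2780 (−0.40 ± 0.10) and rose in ES2 (0.91 ± 0.08). In A2780 WEE1 averaged 19.4 TPM with siVRK1, 35.1 TPM with siCtrl and 20.5 TPM with DMSO. PKMYT1 averaged 46.7, 24.3 and 46.9 TPM in those groups of ES2, so siVRK1 lay near DMSO. In A2780 its means were 50.6, 66.8 and 63.1 TPM. With luteolin 1 of these 2 kinase genes was higher and 1 lower in A2780, and 1, PKMYT1, was higher in ES2.

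Of the CDK inhibitors, 7 of 8 were tested in each line. With siVRK1, 3 were higher and 3 lower in A2780, and 4 were higher and 3 lower in ES2. With luteolin, 1 was higher and 4 lower in A2780, and 4 were higher and 2 lower in ES2. CDKN1A, which encodes the inhibitor p21, rose in all 4 comparisons, to 883 ± 93.4 TPM with luteolin in A2780, against 49.5 ± 2.18 TPM with DMSO, and to 11.1 ± 3.12 TPM in ES2, against 3.50 ± 0.228 TPM. CDKN3, a phosphatase that acts on CDK1 and CDK2, rose to 125 ± 5.29 TPM with siVRK1 in ES2, against 29.9 ± 1.86 TPM (2.03 ± 0.09, limma adjusted p = 3.54e-09), and fell with luteolin in A2780 to 19.6 ± 0.486 TPM, against 49.2 ± 2.91 TPM. CDKN2B, which encodes the CDK4 and CDK6 inhibitor p15, fell with siVRK1 in ES2 to 2.28 ± 0.388 TPM, against 11.1 ± 0.878 TPM. CDK6 itself fell there to 7.31 ± 0.0687 TPM, against 30.7 ± 0.45 TPM (−1.93 ± 0.07), while CDK4 rose to 437 ± 3.08 TPM, against 353 ± 3.72 TPM. The ES2 DMSO means were 80.3 TPM for CDKN3 and 14.9 TPM for CDK6. So siCtrl lay below DMSO for CDKN3 and above it for CDK6, with DMSO between siCtrl and siVRK1 for both. The part of this control difference was not tested.

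Among 13 E2F, DP and pocket protein genes, 0 were higher and 6 lower with siVRK1 in A2780, beside 13.8% and 27% of all genes. In ES2 7 were higher and 4 lower, beside 26.8% and 28%. With luteolin 5 were higher and 4 lower in A2780, and 2 higher and 3 lower in ES2. In ES2 with siVRK1, the activator E2F1 rose to 36.3 ± 1.48 TPM, against 14.1 ± 0.606 TPM (1.31 ± 0.07), and E2F8 to 10.6 ± 0.426 TPM, against 3.11 ± 0.857 TPM. The repressor E2F7 fell with siVRK1 in A2780 (−1.17 ± 0.10) and in ES2 (−1.25 ± 0.07). It rose with luteolin in A2780 (1.04 ± 0.10 relative to the median) and in ES2 (0.74 ± 0.07). In A2780 E2F7 averaged 8.17 TPM with siVRK1, 19.5 TPM with siCtrl and 8.998 TPM with DMSO. Its ES2 means were 22.8, 55.7 and 21.02 TPM in those groups, so siVRK1 lay near DMSO in both lines. Of 7 MuvB, MYBL2 and FOXM1 genes, among them the subunits that bind the homology region, 0 were higher and 5 lower with siVRK1 in A2780, and 3 were higher and 2 lower in ES2. With luteolin 1 was higher and 2 lower in A2780, and 1 of each in ES2. MYBL2 fell with luteolin in A2780 to 44.7 ± 5.75 TPM, against 119 ± 2.28 TPM (−1.62 ± 0.08 relative to the median), and rose with siVRK1 in ES2 to 49.3 ± 1.54 TPM, against 28.7 ± 0.418 TPM.

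Of 18 genes for cyclin degradation, 1 was higher and 6 lower with siVRK1 in A2780, and 4 were higher and 4 lower in ES2. With luteolin 4 were higher and 7 lower in A2780, and 1 was higher and 12 lower in ES2. FBXW7, which targets cyclin E for degradation, rose with luteolin in A2780 to 19.4 ± 2.43 TPM, against 5.03 ± 0.545 TPM (1.54 ± 0.15 relative to the median). CDC20, an activator of the anaphase-promoting complex that destroys cyclin B, fell with luteolin in ES2 to 220 ± 6.66 TPM, against 361 ± 11.4 TPM, and SKP2, the ligase receptor for p27, to 17.3 ± 0.541 TPM, against 35.8 ± 2.1 TPM. Of 8 other cell cycle and germline cyclins and G1 CDKs, 7 were tested, with 0 higher and 2 lower for siVRK1 in A2780, 2 and 2 in ES2, 3 and 2 for luteolin in A2780, and 0 and 2 in ES2. CCNF fell with luteolin in both lines (−1.37 ± 0.06 relative to the median in A2780 and −0.78 ± 0.06 in ES2).

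Of 17 cyclins and CDKs of transcription and CDK activation, 11 were higher and 1 lower with luteolin in A2780, beside 45.6% and 19.9% of all genes. With siVRK1, 2 were higher and 7 lower in A2780, and 1 was higher and 7 lower in ES2. With luteolin in ES2, 3 were higher and 7 lower. CCNC, the cyclin of the Mediator kinase module, fell with siVRK1 to 33.0 ± 1.59 TPM in A2780, against 65.9 ± 1.58 TPM, and to 25.7 ± 1.76 TPM in ES2, against 95.3 ± 3.41 TPM (−1.85 ± 0.07). Its ES2 DMSO mean was 64.2 TPM, between those 2 groups. CCNL1 and CCNL2, cyclins tied to pre-mRNA splicing, rose with luteolin in A2780 (1.60 ± 0.11 and 1.55 ± 0.07 relative to the median) and in ES2 (0.59 ± 0.13 and 0.51 ± 0.07). The counts for these lists are read beside the same shares of all genes as above, and nothing particular to a list was tested.

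**Figure D5:**
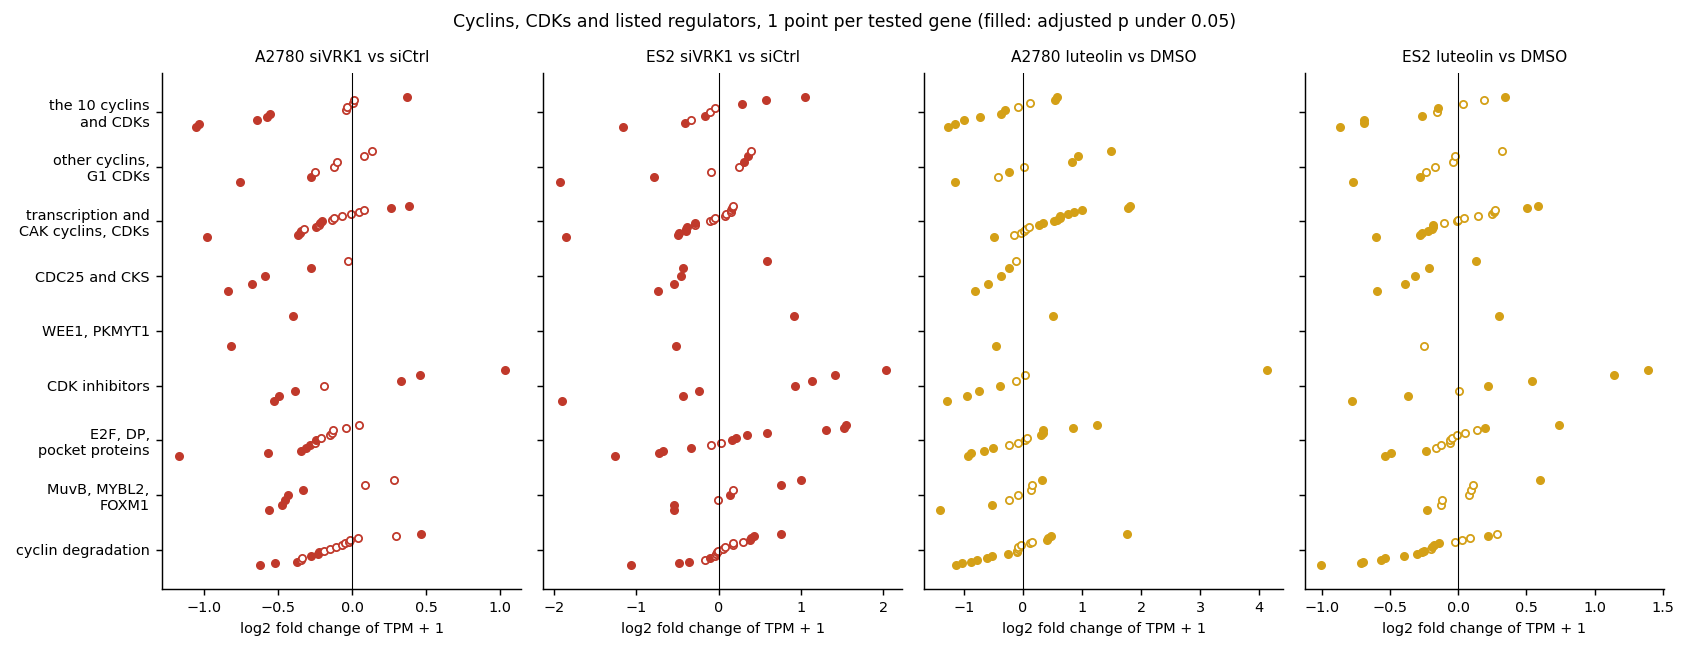
Log2 fold change of TPM + 1 (horizontal axis, a scale of its own in each panel) of the tested genes of each list (rows), 1 point per gene, ordered by value within a row. Filled points passed an adjusted p of 0.05 and luteolin values are not shifted by the median; CDKN1A is the far right point of the A2780 luteolin panel.

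Genes whose pattern was most like that of each member were ranked by Pearson's r over the 8 group means of log2(TPM + 1), after removing each line's mean, among 10103 genes of at least 5 TPM. These points share controls and libraries, so r is given as a description. CCNA2 was closest to the proteasome subunit PSMD7 (0.998), the mitochondrial channel VDAC1 (0.995) and MPDU1 (0.992). CCNB1 was closest to CDCA2 (0.992), PAF1 (0.991) and the checkpoint kinase BUB1 (0.987), and CCNB2 to the tubulins TUBA1B (0.994) and TUBA1C (0.992) and the centromeric histone CENPA (0.992). CDK1 was closest to HIRIP3 (0.991) and the kinesin KIF22 (0.991), and CDK2 to the helicase HELLS (0.996) and to E2F8 (0.987). CCNE1 was closest to RMI1 (0.979), CCNE2 to ZNRF3 (0.986), CCND1 to DPH2 (0.980), and CCND3 to SLC47A1 (0.971). CCND2, which the ES2 libraries leave near 0, was closest to the olfactory receptor pseudogene OR5AO1P (0.997) and to MAP7D2 (0.988).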

How the data were processed

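Total RNA came from a spin column kit and was sequenced by a company, per the labels' protocols. Per the submitters' processing notes, FastQC, kallisto and the build hg19 were used, with no version and no transcript set named there. The values the authors deposited are TPM per transcript, 193845 lines for 191887 transcripts; repeated lines were identical and used once. Each library sums to 1000000, so depth is unknown and no counting interval is given. Groups follow the titles, since the cell line label counts upward and some siVRK1 treatment labels read siVRK2 or siVRK3. Both ES2 siVRK1 columns that carry the same name were kept as libraries a and b.

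Gene TPM was summed over distinct transcripts of a symbol; 9542 transcripts without a symbol and 19 with several, 0.514% to 1.03% of TPM, were left out. limma 3.58.1 (R 4.3.3, limma-trend, two-sided) was fitted on log2(TPM + 1), which understates the change of low genes, for genes of at least 1 TPM in at least 3 libraries: 12 libraries within a line, 24 across lines. Adjusted p-values are Benjamini-Hochberg over all genes tested, with a threshold of 0.05. Values after ± are the SD of 3 libraries for a TPM level and the SE of the fit for a log2 change. The 10 members, the 12 other lists, the rule for named list genes (per list, direction and treatment, the 2 largest called changes without overlap and at least 5 TPM) and the tests were chosen with earlier results of these data known. Transcript names and types are from GENCODE release 29, which held all member transcripts except 4 of the 8 of CCND2. How kallisto split reads between overlapping transcripts cannot be checked from TPM. Simulated gene levels with known changes were put through the limma fit of the siVRK1 comparisons only. The other steps were not tested that way. Alternatives were pseudocounts of 0.1 and 5, no filter or 5 TPM, median-of-ratios and quantile scaling, only the groups compared, the most abundant transcript, a replicate block, each library left out and, added after seeing the data, each transcript alone.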

Additional observations from a re-analysis of the deposited data

Results flagged for a closer look

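The responses of 8 of the 10 genes to siVRK1 differed between the lines in a direct test (limma, ES2 minus A2780 on the log2 scale), 6 of them higher and 2 lower, beside 20.7% and 13.2% of all 14328 genes. The difference was 1.08 for CCNE2, 0.93 for CDK1, 0.70 for CCNE1, 0.62 for CDK2, 0.45 for CCNB1 and 0.41 for CCNB2. It was −0.42 for CCND1 and −0.37 for CCND2. The CCND2 value only mirrors A2780, since ES2 was listed at 0 TPM with both siRNAs. That value turned to 0.30 when the most abundant transcript stood for the gene. For the 6 higher genes, ES2 siCtrl lay below ES2 DMSO (log2 changes of −0.96 to −0.17), and for CCND1 above it (0.72). The part of these control differences was not tested.

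The responses to luteolin also differed for 8 of the 10 genes, 6 higher and 2 lower, beside 14.7% and 35.8% of all genes. The unshifted difference was 0.59 for CCNB2, 0.56 for CCNE1, 0.46 for CDK1, 0.35 for CDK2, 0.29 for CCNA2 and 0.29 for CCNB1. It was −0.70 for CCND3 and −0.24 for CCND1, beside a median of −0.20 over all genes. CCND1 was not called with median-of-ratios scaling, quantile normalization or the most abundant transcript (limma adjusted p = 0.516, 0.145 and 0.595). CCNA2 and CCNB1 were not called with only the groups compared (0.0777 and 0.121) or without any 1 of several libraries, nor was CCNB1 without a filter (0.0646) or with the most abundant transcript (0.583).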

How the results depend on the processing

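The number of members called stayed within 1.5 times of the main count under every alternative run, except for A2780 siCtrl against DMSO. There 2 members were called, and 4 with a 5 TPM filter, 6 with median-of-ratios scaling, 4 with only the groups compared, and 2 to 4 with a library left out (4 without A2780 DMSO library 3).

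The values below are log2 changes not shifted by the median of all genes. Signs turned mostly for members that were not called. With median-of-ratios scaling, A2780 siVRK1 gave 0.052 for CCNE2 and 0.049 for CDK2, and A2780 luteolin gave −0.088 for CCNE2. A2780 siCtrl against DMSO gave −0.25 for CCND3, −0.15 for CCNE1, −0.10 for CCNE2, −0.048 for CCNA2, −0.059 for CCNB1 and −0.16 for CDK2. The A2780 luteolin minus siVRK1 difference gave −0.14 for CCNE2 and −0.25 for CCNA2, and ES2 against A2780 siCtrl gave 0.20 for CCNB1 and 0.17 for CCNB2. With quantile normalization, A2780 siVRK1 gave 0.071 for CCNE2 and 0.069 for CDK2, A2780 luteolin 0.051 for CCND2 and −0.25 for CCNE2, and ES2 siVRK1 0.014 for CCND3. A2780 siCtrl against DMSO gave −0.21 for CCND3, −0.082 for CCNE1, −0.19 for CCNE2 and −0.095 for CDK2. The A2780 luteolin minus siVRK1 difference gave −0.32 for CCNE2 and −0.090 for CCNA2, and the luteolin difference ES2 minus A2780 gave −0.017 for CCND2 and 0.10 for CCNE2.

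With the most abundant transcript in place of the sum, CCND2 turned in 6 comparisons: −0.30 for A2780 siVRK1, 0.19 for A2780 luteolin, −0.38 for A2780 siCtrl against DMSO, 0.50 for luteolin minus siVRK1, 0.30 for the siVRK1 and −0.19 for the luteolin difference between lines. CCND3 and CDK2 gave −0.075 and 0.039 for A2780 siVRK1, CDK2 −0.076 for A2780 siCtrl against DMSO, and CCNE2 −0.17 for A2780 luteolin, −0.027 for luteolin minus siVRK1 and 0.26 for the luteolin difference.

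Leaving out 1 library turned the sign of 15 values, all of uncalled members. Their ranges were −0.0098 to 0.046 for CCND1, −0.019 to 0.055 for CCND3 and −0.10 to 0.053 for CCNE2 in A2780 siVRK1, and −0.0068 to 0.23 for CCNE2 in A2780 luteolin. They were −0.0089 to 0.18 for CCNA2 in luteolin minus siVRK1, −0.014 to 0.027 for CCND3 in A2780 siCtrl against DMSO, −0.035 to 0.10 for CDK2 in ES2 against A2780 DMSO, and −0.016 to 0.078 for CDK2 in ES2 luteolin.

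Samples with the same replicate number did not deviate together: their correlations lay between −0.0970 and 0.0414 in A2780 and between −0.0633 and 0.0371 in ES2, so the numbers were not read as pairs. The replicate block called 6 members for A2780 siVRK1, 8 for A2780 luteolin, 7 or 6 for ES2 siVRK1 by the order given to the unnumbered libraries, and 6 for ES2 luteolin. Depth is unknown, so what low values such as ES2 CCNE1 could show is limited by the spread of 3 libraries. The cause of these turns was not tested.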
